A study of Mus musculus with 8 samples.

Results

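The genes described here repair DNA outside homologous recombination: mismatch repair, nucleotide and base excision repair with single-strand break repair, end joining of broken ends, and translesion synthesis, in which specialised polymerases copy past damage. They were taken from a list of 38 gene symbols. A symbol was measured when at least 1 probe set carried it as its only symbol in the platform annotation, which held for 37 of the 38, out of 18193 genes measured in all. The exception was Tdg, a thymine DNA glycosylase, whose probe sets are shared with pseudogene symbols. The list held 5 mismatch repair genes, 10 of nucleotide excision, 12 measured ones of base excision and single-strand break repair, 6 of end joining and 4 of translesion synthesis.

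RNA was measured on 8 Affymetrix arrays of NIH3T3 cells (an established line of mouse embryonic fibroblasts) transduced with a fluorescent p27 mutant (mVenus-p27K-) and a fluorescent Cdt1 fragment (mCherry-hCdt1(30/120)). The cells were kept without serum, returned to 10% serum for 5 h and sorted into p27-negative, Cdt1-positive cells (G1, 4 arrays) and p27-positive, Cdt1-positive cells (G0, 4 arrays). All cells of both groups carried both reporters and had the same serum treatment, so by their labels the groups differ in the sorting gate, and G0 here means cells that kept the p27 reporter after serum. The measurements are log2 values, each set against the median of its own probe set, and show differences between arrays and no absolute level, so neither the fibroblast identity nor the presence of a transcript can be read from them, and no level is compared between genes.

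Each pathway removes a different kind of lesion. Mismatch repair corrects errors left by replication, base excision repair removes single altered bases, and nucleotide excision repair cuts out a stretch of the strand around bulky damage such as ultraviolet photoproducts. Classical end joining rejoins double-strand breaks in all phases and is the main route in G0 and G1 cells, which lack a sister chromatid to copy from.

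The labels put replicate 4 of each group in a second labelling batch (kit protocol revision 3, against revision 8 for the others). The 24 poly-A spike-in probe sets, which report bacterial transcripts added before labelling, gave another split: their median was −6.40 on G1 replicate 4 and −7.12 on G0 replicate 3, against −0.14 to 0.62 on the other 6 arrays. Differences were therefore tested in limma with the labelled batch as covariate, as the labels give it, and again with the spike-in batch in its place. Since each covariate sets apart 1 array of each group, the choice between them alters the standard error (SE) of a difference but not its size. The median difference over all genes was −0.06. Proliferation genes moved with the groups: all 20 measured genes of a reference list of replication and mitosis genes had a positive difference (median 1.60), with list medians of 0.69 to 0.90 on G1 arrays and −1.16 to −0.76 on G0 arrays. Their part in the results below was not tested. Of the sorting reporters' own genes, Cdkn1b (p27) differed by −0.56 (adjusted p = 0.926) and Cdt1 by 0.39 (adjusted p = 0.769); the reporter transcripts may add to either.

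A single repair gene passed the test. Neil3, a DNA glycosylase that removes oxidised bases, mainly from single-stranded DNA, and unhooks interstrand crosslinks at replication forks, was 7.94-fold higher in G1. Of the 37 genes, 1 was higher at an adjusted p under 0.05 (background: 0.5% of all genes tested) and 0 were lower (background 0.022%). With the spike-in batch the counts were the same, against backgrounds of 0.929% and 0.077%, and without the arrays that lack spike-ins 0 were higher and 0 lower (background 0.165% and 0.0055%). The other 36 genes differed by −1.04 to 1.09, and none of them passed in limma with either batch. At an unadjusted p under 0.05, 8 genes were higher and 0 lower (background 4.33% and 3.74%), and with the spike-in batch 11 were higher and 1 lower (background 6.04% and 6.37%). In 7 genes all 4 G1 arrays lay above all 4 G0 arrays (background 3.79%), namely Neil3, Mutyh, Polh, Msh6, Pms2, Parp2 and Xrcc1, and in 1, Ercc3, all lay below (background 3.28%). The difference was above 0 in 23 genes, against a background of 44.7%. The direction was uneven between the pathways: it was positive in 5 of 5 mismatch repair, 4 of 4 translesion and 8 of 12 base excision genes, but in 3 of 10 nucleotide excision and 3 of 6 end joining genes.

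**Figure D1:**
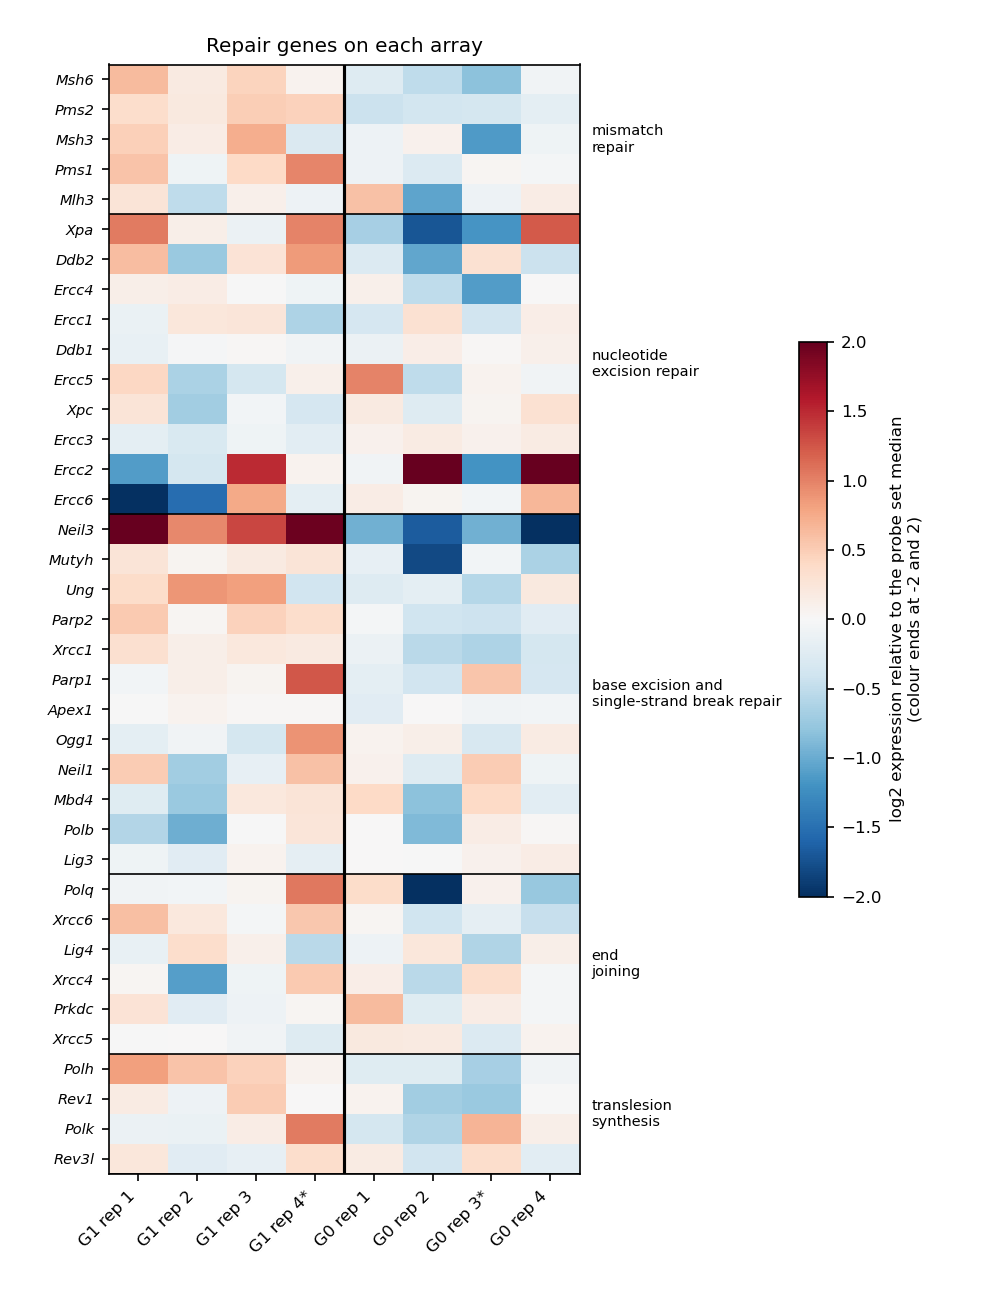
Log2 expression relative to the probe set median for the 37 repair genes (down the page, grouped by pathway and sorted by difference) on the 4 G1 arrays (left of the line) and the 4 G0 arrays (right); asterisks mark the arrays without spike-ins. Neil3 is the one gene with strong colour of a single kind on each side; Ercc2, Ercc6 and Xpa vary strongly within a group.

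Neil3 read 2.08, 0.96, 1.34 and 1.96 on G1 replicates 1 to 4 and −0.96, −1.66, −0.96 and −2.04 on G0 replicates 1 to 4. Every G1 array was above every G0 array, and the nearest values are equal in size and opposite in sign because centring makes them so in any gene whose groups do not overlap. The mean was 1.58 ± 0.53 in G1 and −1.41 ± 0.54 in G0 (SD, n = 4 each), a log2 difference of 2.99 (SE 0.38, limma adjusted p = 0.028; and SE 0.32, adjusted p = 0.013 in the spike-in batch fit). Split by the labelled batch, the difference was 2.65 in batch 1 and 4.0 in batch 2. Split by the spike-ins, it was 3.01 on the arrays that had them and 2.92 on those that did not. The gene's other probe set also had all G1 arrays above all G0 arrays, by 3.25 on average (SE 0.92, adjusted p = 0.413, or 0.097 in the spike-in batch fit).

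The Neil3 call depended on each array, while its size varied little. With the labelled batch as covariate, the limma adjusted p was 0.210, 0.094, 0.158 and 0.167 without G1 replicates 1 to 4, and 0.080, 0.149, 0.067 and 0.131 without G0 replicates 1 to 4, while the difference stayed between 2.65 and 3.23. On the 6 arrays with spike-ins it was 3.01 (adjusted p = 0.091).

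**Figure D2:**
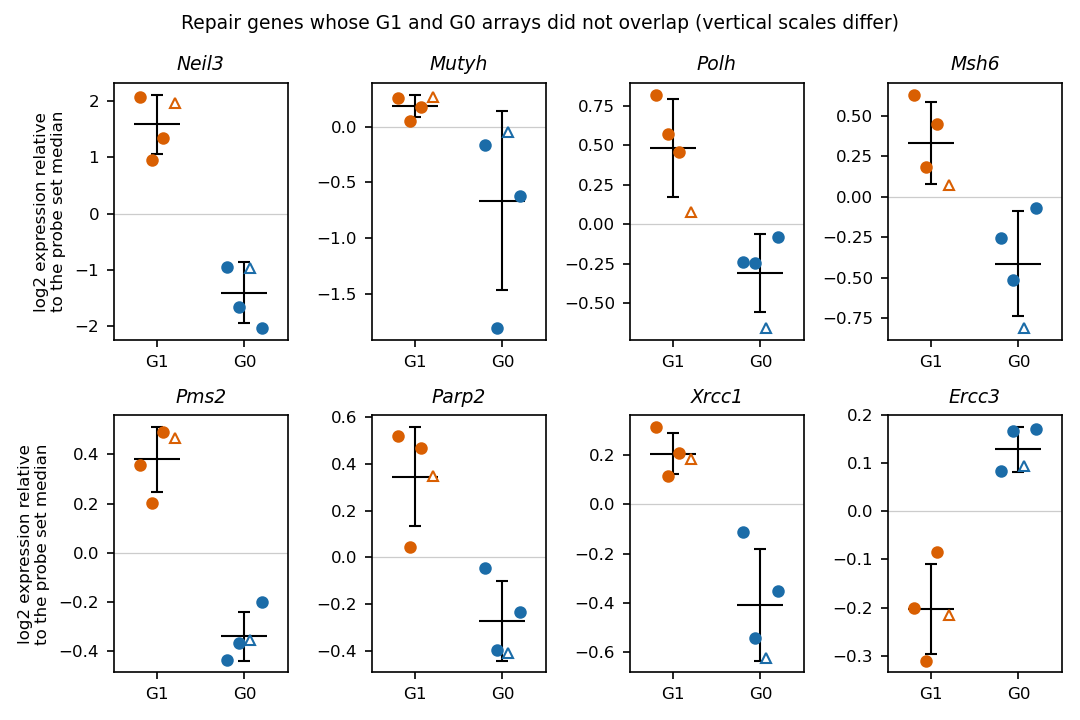
Log2 expression relative to the probe set median (vertical axis, scale set per gene) for the 8 repair genes whose groups did not overlap; points are arrays, open triangles the arrays without spike-ins, and black bars the mean and SD of 4 arrays. Neil3 spans about 4 log2 units, from −2.04 to 2.08, while Ercc3, the gene lower in G1, spans −0.31 to 0.17.

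The other base excision genes differed less. Among the glycosylases, Neil1, the relative of Neil3 that acts on oxidised bases, differed by −0.00 (SE 0.35; 95% confidence interval −0.81 to 0.81). Ogg1, which removes oxidised guanine, differed by 0.07 (−0.51 to 0.65) and Mbd4, which removes thymine or uracil opposite guanine, by −0.07 (−0.98 to 0.83). None of these intervals reached the size of the Neil3 difference. Mutyh, which removes adenine opposite oxidised guanine, read 0.26, 0.05, 0.18 and 0.26 in G1 and −0.16, −1.81, −0.05 and −0.63 in G0. Its groups did not overlap, but the nearest values were 0.05 and −0.05, and G0 replicate 2 was far below the rest (difference 0.85, SE 0.44, limma adjusted p = 0.768). Ung, the uracil DNA glycosylase, read 0.37, 0.88 and 0.83 on G1 replicates 1 to 3 but −0.38 on replicate 4, against −0.25, −0.20, −0.57 and 0.20 in G0 (difference 0.63, SE 0.33, adjusted p = 0.773).

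Of the genes that process the opened strand, 2 that act on strand breaks separated the groups. Parp2, a poly(ADP-ribose) polymerase activated by strand breaks, read 0.52, 0.05, 0.47 and 0.35 in G1 and −0.05, −0.40, −0.41 and −0.23 in G0 (difference 0.62, SE 0.21, adjusted p = 0.566; 0.247 in the spike-in batch fit). Xrcc1, the scaffold of single-strand break repair, read 0.31, 0.11, 0.21 and 0.18 in G1 and −0.11, −0.54, −0.62 and −0.35 in G0 (difference 0.61, SE 0.23, adjusted p = 0.621; 0.262 in the spike-in batch fit). Every array of G1 was higher in both genes, yet neither passed in limma. Parp1, the main poly(ADP-ribose) polymerase, differed by 0.43 (SE 0.35, adjusted p = 0.879), and G1 replicate 4 at 1.24 stood apart from −0.05 to 0.11 on the other G1 arrays. Another of its 4 probe sets separated the groups by 0.68 (SE 0.21, adjusted p = 0.455). The remaining ones did not separate them and differed by 0.56 (SE 0.25) and −0.11 (SE 0.42). The abasic endonuclease gene Apex1 differed by 0.11 (−0.32 to 0.55), the gap-filling polymerase gene Polb by −0.16 (−1.05 to 0.73) and the ligase gene Lig3, whose protein binds Xrcc1, by −0.16 (−0.61 to 0.28). The median of the 12 genes was 0.27, and 0.11 over the 11 without Neil3. It was 0.088 without G1 replicate 4 or without G0 replicate 4, either of which leaves the comparison to labelling batch 1.

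From RefSeq's table of promoters on GRCm38.p6, 250 bases before to 50 after the start site, 36 promoters of 32 of the 38 genes were taken. Promoters of the listed genes were partly selected by chromosome, while the background of all promoters was not. A listed gene without a promoter here may therefore still have one in that table. The 36 promoters were searched on both strands for letters that recur in promoters of cell cycle genes. The E2F core (TTTCCCGC, TTTCGCGC, TTTGCCGC or TTTGGCGC) was present in 3 of the 36, those of Msh6, Msh3 and Xrcc6 (8.33%, against 2.26% of all 32851 promoters). The cell cycle homology region TTTGAA was present in 2 of the 36 (5.56% against 17.9%) and CCAAT in 18 (against 37.4% of all promoters). The Neil3 promoter (chr8:53639016-53639315, minus strand), shown because it belongs to the gene that passed, held none of these letters. The other 3, chosen for printing after their values were seen, belong to mismatch repair and end joining genes with differences of 0.75 (Msh6, chr17:87974800-87975099, plus strand), 0.57 (Msh3, chr13:92354954-92355253, minus strand) and 0.58 (Xrcc6, chr15:82016119-82016418, plus strand). Capitals mark the E2F core on either strand, which begins at 15 relative to the start site in Msh6, at −202 in Msh3, where a second match overlaps it from −198, and at −46 in Xrcc6. A match is a description of letters and not evidence of binding. Some searched genes without an E2F core match differed by as much, such as Mutyh (0.85), Pms2 (0.72) and Xrcc1 (0.61). Others differed by less, such as Apex1 (0.11) and Mlh3 (0.04). A link between the letters and the differences was not tested. Each promoter is written 5′ to 3′ on the gene's strand.
Neil3: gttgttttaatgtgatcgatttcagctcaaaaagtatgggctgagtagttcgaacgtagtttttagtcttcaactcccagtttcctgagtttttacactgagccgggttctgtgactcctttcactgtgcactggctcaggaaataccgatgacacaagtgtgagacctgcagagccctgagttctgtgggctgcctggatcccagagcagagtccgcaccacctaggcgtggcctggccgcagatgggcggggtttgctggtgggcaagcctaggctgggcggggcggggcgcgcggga
Msh6: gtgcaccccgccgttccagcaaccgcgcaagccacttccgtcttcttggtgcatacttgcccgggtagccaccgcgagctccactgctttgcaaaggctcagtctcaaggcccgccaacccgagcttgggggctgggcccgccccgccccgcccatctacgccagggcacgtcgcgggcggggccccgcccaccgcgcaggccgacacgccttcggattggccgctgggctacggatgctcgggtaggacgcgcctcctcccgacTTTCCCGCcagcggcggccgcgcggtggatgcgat
Msh3: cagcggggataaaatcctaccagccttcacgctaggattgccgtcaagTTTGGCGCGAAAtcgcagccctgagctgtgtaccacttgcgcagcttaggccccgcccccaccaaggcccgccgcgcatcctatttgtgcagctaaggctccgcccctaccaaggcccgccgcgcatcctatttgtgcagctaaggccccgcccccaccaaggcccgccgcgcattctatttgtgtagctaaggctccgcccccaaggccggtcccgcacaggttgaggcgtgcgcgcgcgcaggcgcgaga
Xrcc6: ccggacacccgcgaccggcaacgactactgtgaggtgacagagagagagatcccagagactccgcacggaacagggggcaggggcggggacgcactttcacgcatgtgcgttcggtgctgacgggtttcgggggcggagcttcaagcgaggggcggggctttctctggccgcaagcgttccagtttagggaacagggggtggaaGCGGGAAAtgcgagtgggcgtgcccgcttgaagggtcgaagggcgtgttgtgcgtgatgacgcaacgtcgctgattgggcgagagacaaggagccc

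All 5 mismatch repair genes had a positive difference (background 44.7%) and 0 passed in limma. At an unadjusted p under 0.05, 2 were higher and 0 lower (background 4.33% and 3.74%), and with the spike-in batch 4 and 0 (background 6.04% and 6.37%). The median difference was 0.57, and the list's median ran from 0.07 to 0.47 on G1 arrays and from −0.37 to −0.07 on G0 arrays. Msh6, which pairs with the common MutS subunit to recognise base mismatches, read 0.63, 0.18, 0.45 and 0.07 in G1 and −0.25, −0.51, −0.81 and −0.07 in G0. All G1 arrays were higher, with replicate 4 of both groups nearest to the middle (difference 0.75, SE 0.26, adjusted p = 0.583; 0.183 in the spike-in batch fit). Pms2, the endonuclease subunit that nicks the new strand, read 0.36, 0.20, 0.49 and 0.47 in G1 and −0.44, −0.37, −0.35 and −0.20 in G0. Its arrays lay close together within each group (SD 0.13 in G1 and 0.10 in G0), and its difference of 0.72, or 1.64-fold, had the smallest p of the 36 genes that did not pass over all genes (SE 0.18, unadjusted p = 0.0050, limma adjusted p = 0.318; 0.105 in the spike-in batch fit). Its other 2 probe sets differed by 0.07 and 0.92 (adjusted p = 0.987 and 0.864).

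Msh3, the subunit for larger insertion loops, differed by 0.57 (SE 0.36, adjusted p = 0.823), and all 4 of its probe sets were positive, at 0.57 to 1.28. On the probe set used, G0 replicate 3 stood apart at −1.13, against −0.10 to 0.09 on the other G0 arrays. Pms1, a MutL subunit, read 0.57, −0.09, 0.40 and 0.97 in G1 and −0.10, −0.27, 0.04 and −0.04 in G0, so that G1 replicate 2 fell among the G0 values (0.56, SE 0.24, adjusted p = 0.70). Mlh3, a MutL subunit with a main role in meiosis, differed by 0.04 (95% confidence interval −0.88 to 0.96), too wide to read. The median of the 5 differences was 0.73 in labelling batch 1 but 0.14 in batch 2. It was 0.48 on the arrays with spike-ins and 0.85 on those without.

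Mismatch repair shares its excision and resynthesis factors with replication. Of 15 such genes, 3 rose in limma and 0 fell (background 0.5% and 0.022% of all genes tested), and with the spike-in batch 8 rose (background 0.929%). Exo1, the exonuclease that removes the mismatched strand, was 4.10-fold higher (2.04, SE 0.26, adjusted p = 0.028). Rfc5, a subunit of the clamp loader, was 3.62-fold higher (1.85, SE 0.23, adjusted p = 0.026), and Lig1, the ligase of replication, 3.55-fold higher (1.83, SE 0.22, adjusted p = 0.025). All G1 arrays lay above all G0 arrays in 14 of the 15 (background 3.79%), and the differences ran from −0.11 to 2.04 with a median of 1.08. The exception was Pold4, the small subunit of polymerase delta (−0.11, SE 0.22, adjusted p = 0.973). Without the arrays that lack spike-ins, 1 of the 15 passed (background 0.165%), Lig1 (adjusted p = 0.047).

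In nucleotide excision repair 7 of the 10 differences were below 0, as were those of 10065 of the 18193 genes tested. With so few genes, the count is not read as a fall of the pathway. None of these genes passed in either direction in limma. At an unadjusted p under 0.05 there were 1 higher and 0 lower (background 4.33% and 3.74%), or 0 higher and 1 lower with the spike-in batch (background 6.04% and 6.37%). Its median was −0.16. Ercc3, a helicase subunit of transcription factor TFIIH that opens DNA at the lesion, read −0.20, −0.31, −0.08 and −0.22 in G1 and 0.08, 0.17, 0.09 and 0.17 in G0. The 8 values fall in 2 tight groups with no overlap (SD 0.09 in G1 and 0.05 in G0), and the difference was −0.33, or 1.26-fold lower in G1 (SE 0.19, adjusted p = 0.793; SE 0.13 and adjusted p = 0.428 in the spike-in batch fit). The other TFIIH helicase gene, Ercc2, could not be read: its values ran from −1.11 to 1.49 in G1 and from −1.20 to 2.53 in G0, and its other probe set had the opposite sign (−0.85 and 0.41, SE 0.93 and 0.28).

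The damage sensors did not differ past the threshold. Xpc, which finds helix distortions, differed by −0.28 (95% confidence interval −0.94 to 0.39), Ddb1, the adaptor of the ultraviolet damage sensor, by −0.09 (−0.53 to 0.35) and Ddb2, its lesion-binding subunit and in human cells a p53 target, by 0.61 (−0.39 to 1.61). Xpa, which verifies the lesion, read 1.04, 0.12, −0.12 and 1.00 in G1 and −0.66, −1.71, −1.18 and 1.23 in G0, so that G0 replicate 4 exceeded every G1 array (1.09, SE 0.45, adjusted p = 0.674). Its other 2 probe sets differed by −0.49 and 0.03 (adjusted p = 0.692 and 0.996), so Xpa has no settled direction. The incision nuclease genes Ercc1, Ercc4 and Ercc5 differed by −0.00, 0.42 and −0.24 (adjusted p of at least 0.874). Ercc6, which couples repair to stalled transcription, read −2.41, −1.52, 0.75 and −0.19 in G1 and 0.14, 0.06, −0.06 and 0.67 in G0. Its G1 arrays straddle the G0 range (−1.04, SE 0.67, adjusted p = 0.826). Of 15 other measured genes of the pathway, among them TFIIH subunits, 0 passed in limma, none reached an unadjusted p under 0.05 with either batch, and their median difference was 0.00. The one whose groups did not overlap (background 3.79% above), the TFIIH gene Gtf2h5, differed by 0.22 (adjusted p = 0.878).

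Of the 6 end joining genes 0 passed in limma. At an unadjusted p under 0.05 there were 1 higher and 0 lower with either batch (background 4.33% and 3.74%, or 6.04% and 6.37% with the spike-in batch). Their median was −0.05, and no gene had groups that did not overlap. Prkdc, the DNA-dependent protein kinase held at broken ends, differed by −0.13 (95% confidence interval −0.73 to 0.47), the ligase gene Lig4 by 0.03 (−0.67 to 0.73) and Xrcc4, the partner of that ligase, by −0.12 (−1.01 to 0.76). With the spike-in batch the intervals of Prkdc and Lig4 narrowed to −0.67 to 0.42 and −0.39 to 0.45. The Ku heterodimer that binds the ends is encoded by Xrcc6 and Xrcc5. Xrcc6 read 0.60, 0.21, −0.04 and 0.53 in G1 and 0.04, −0.40, −0.18 and −0.46 in G0, with G1 replicate 3 below G0 replicate 1 (0.58, SE 0.24, adjusted p = 0.679). Xrcc5 read −0.01, 0.01, −0.08 and −0.25 in G1 and 0.20, 0.18, −0.27 and 0.07 in G0 (−0.13, SE 0.21, adjusted p = 0.963). Polq, the polymerase of the alternative theta-mediated route, had the largest difference of the pathway (0.94, SE 0.65, adjusted p = 0.845), but it read −0.07, −0.05, 0.05 and 1.05 in G1 and 0.37, −2.48, 0.09 and −0.76 in G0. G1 replicate 4 and G0 replicate 2 lay far from the other arrays of their groups. Of 7 other measured genes of the pathway 0 passed in limma, none reached an unadjusted p under 0.05, and the median was 0.28.

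The difference was above 0 in all 4 translesion genes (background 44.7%), with a median of 0.38, and 0 passed in limma. At an unadjusted p under 0.05, 1 was higher and 0 lower with either batch (background 4.33% and 3.74%, or 6.04% and 6.37% with the spike-in batch). Polh, the polymerase that copies past ultraviolet-induced thymine dimers, read 0.82, 0.57, 0.46 and 0.08 in G1 and −0.24, −0.25, −0.66 and −0.08 in G0. All G1 arrays were higher, and of the 36 genes that did not pass Polh had the smallest adjusted p in the spike-in batch fit (difference 0.79, SE 0.24, limma adjusted p = 0.475; SE 0.14 and adjusted p = 0.076 in that fit). Of its other 3 probe sets, 2 differed by 0.80 and 0.96 (adjusted p = 0.615 and 0.178), and the third, which scattered from −2.15 to 1.97, differed by −0.62 (SE 0.96). Rev1, the scaffold of the translesion polymerases, differed by 0.49 (SE 0.30, adjusted p = 0.821), Polk by 0.28 (SE 0.34, adjusted p = 0.940) and Rev3l, the catalytic subunit of polymerase zeta, by 0.06 (SE 0.26, adjusted p = 0.988). Of 12 other measured genes of damage tolerance 0 passed in limma with either batch. At an unadjusted p under 0.05 there were 0, or 2 higher with the spike-in batch (background 6.04%). Poli, another polymerase of this class, separated the groups by 0.46 (adjusted p = 0.705).

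**Figure D3:**
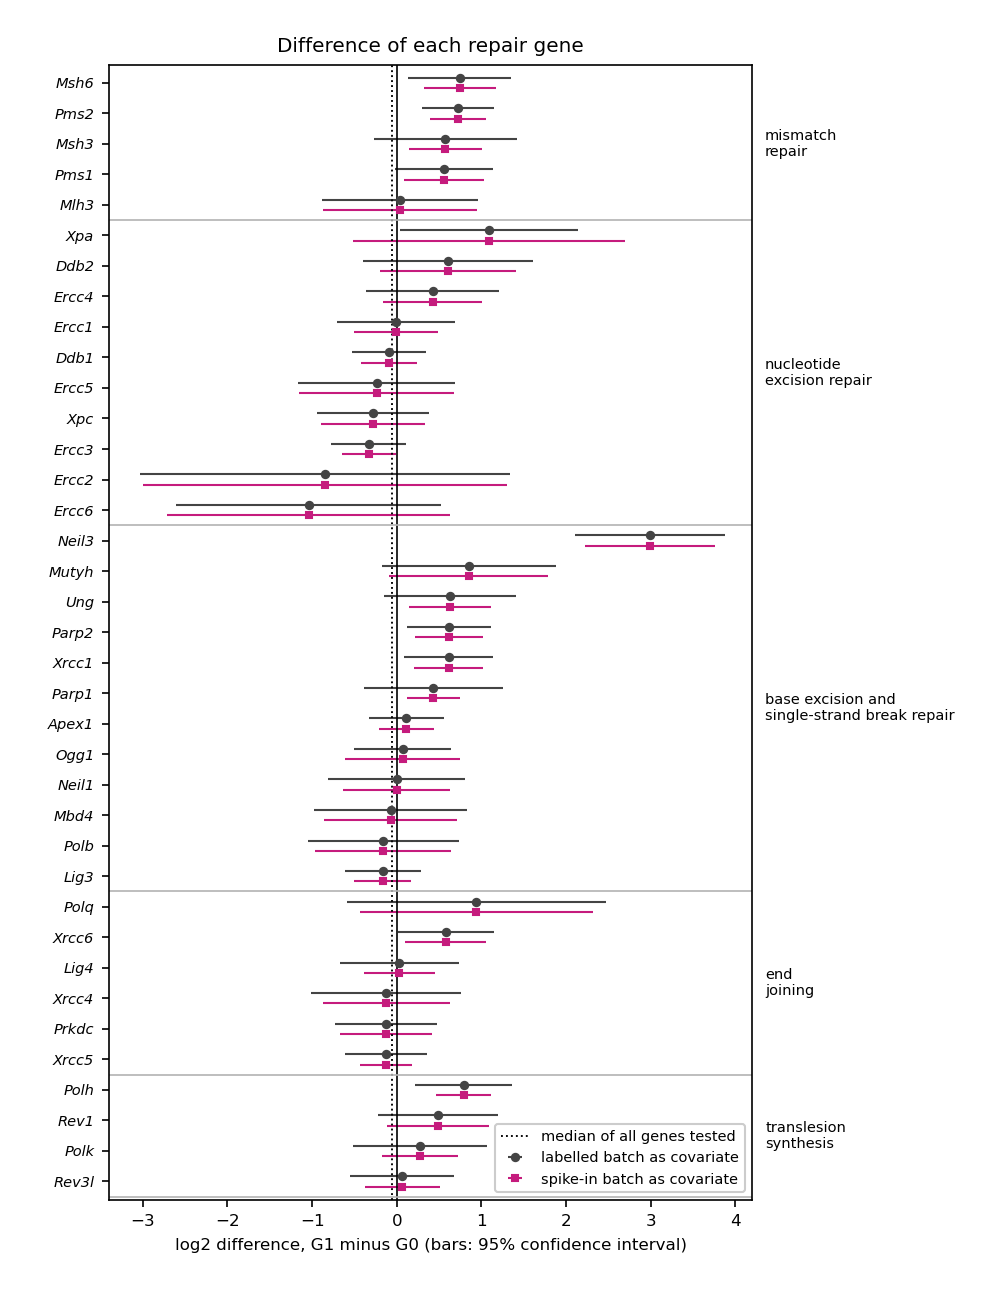
Log2 difference, G1 minus G0, of each repair gene with its 95% confidence interval from limma, with the labelled batch (circles) and the spike-in batch (squares) as covariate; the dotted line is the median of all genes tested. Only the Neil3 interval, 2.11 to 3.87 with the labelled batch, lies wholly above 2. The intervals of Ercc2, Ercc6 and Polq are too wide to read, as is that of Xpa with the spike-in batch (−0.51 to 2.69).

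The precision of a single gene limits these statements. The half-width of the 95% confidence interval had a median of 0.71 over the 37 genes (0.43 to 2.19), and of 0.50 (0.31 to 2.15) with the spike-in batch. A gene that did not pass is thus not shown to be equal in G1 and G0. The within-group SD of the members had a median of 0.41, against 0.64 over all genes tested. Of 20 members with several probe sets, 12 had the same sign on all. The other 8 were Ercc1, Ercc2, Ercc4, Lig3, Mbd4, Parp1, Polh and Xpa.

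The split that the spike-ins show also appeared in some repair probe sets. A probe set of Mbd4 that does not represent it here read 2.30 on G1 replicate 4 and 1.93 on G0 replicate 3, against −1.19 to 0.05 on the other 6 arrays. The SE of Parp1 was 0.13 in the fit with the spike-in batch, against 0.35 with the labelled batch, and that of Msh3 was 0.18 against 0.36. Both were picked as large falls, and the SE of most members fell. It rose for Xpa (0.67 against 0.45), Ogg1 (0.29 against 0.25) and Ercc6 (0.70 against 0.67).

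For 13 pairs of genes whose products work together, picked after the values were seen, the difference of the pair within an array was compared between the groups by an exact two-sided permutation test over the 8 arrays. The smallest p that this test allows is 0.029, so after adjustment over the pairs none could pass unless at least 8 stood at that value. The adjusted p-values therefore cannot show whether partners kept the same difference. Since the pairs were picked with the values known, the unadjusted exact p-values are no support either. The values are a description. Neil3 minus Neil1 averaged 1.52 ± 0.12 in G1 and −1.47 ± 0.37 in G0 (SD, n = 4 each; exact p = 0.029, adjusted p = 0.186). Xrcc1 minus Lig3, which form a complex, averaged 0.31 ± 0.11 in G1 and −0.47 ± 0.25 in G0 (exact p = 0.029, adjusted p = 0.186). In both pairs the groups did not overlap. Xrcc6 minus Xrcc5, the Ku subunits, averaged 0.41 ± 0.35 in G1 and −0.30 ± 0.32 in G0 (exact p = 0.057, adjusted p = 0.248). Msh6 minus Msh3 averaged 0.07 ± 0.27 in G1 and −0.10 ± 0.38 in G0 (exact p = 0.457, adjusted p = 0.594), and Pms2 minus Pms1 −0.09 ± 0.35 in G1 and −0.25 ± 0.14 in G0 (exact p = 0.400, adjusted p = 0.578).

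**Figure D4:**
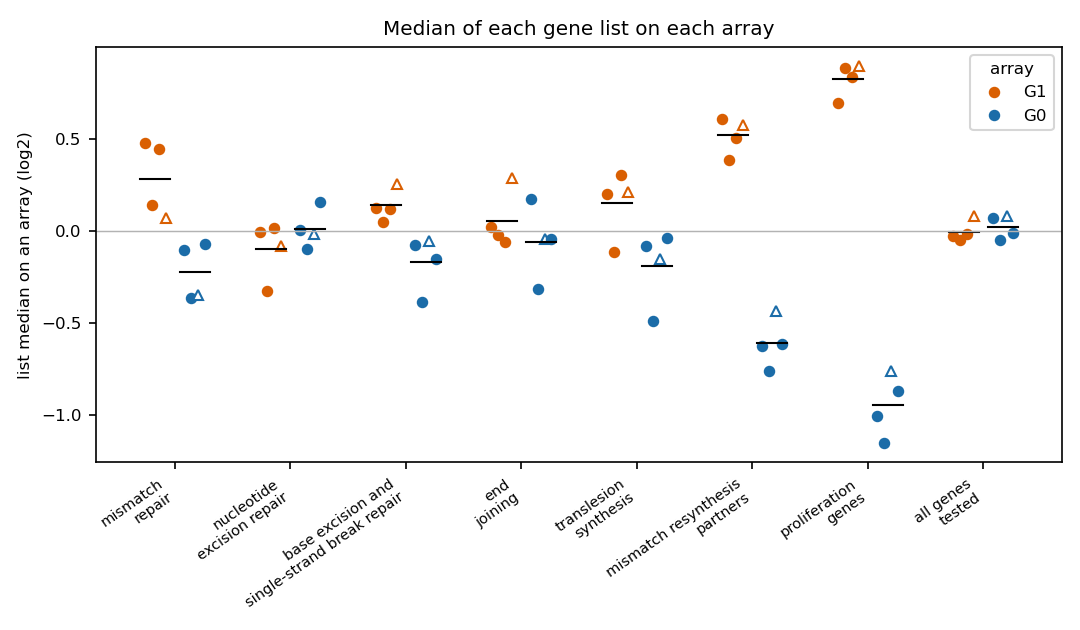
Median of each gene list on each array, in log2 units, with G1 arrays (orange, left) and G0 arrays (blue, right) of each pair, open triangles for arrays without spike-ins and a line at the mean of 4 arrays. The mismatch and base excision lists do not overlap between the groups, nor do the replication factors that mismatch repair uses (0.39 to 0.61 in G1, −0.76 to −0.43 in G0) or the proliferation genes, and the nucleotide excision and end joining lists overlap.

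Set side by side, the list medians differed by 0.57 for mismatch repair, 0.38 for translesion synthesis, 0.27 for base excision, −0.05 for end joining and −0.16 for nucleotide excision, against −0.06 over all genes tested. On the arrays, the base excision median ran from 0.05 to 0.26 in G1 and from −0.39 to −0.06 in G0, and the translesion median from −0.12 to 0.30 in G1 and from −0.49 to −0.04 in G0. The nucleotide excision median ran from −0.33 to 0.01 in G1 and from −0.10 to 0.15 in G0. The end joining median ran from −0.06 to 0.29 in G1 and from −0.32 to 0.17 in G0. Since lists of 4 to 12 genes chosen with results known get no test, this order is a description of these arrays, and it differed between the labelled batches. In batch 1 the median difference was 0.73 for mismatch repair, 0.35 for translesion synthesis, 0.10 for end joining, 0.088 for base excision and −0.11 for nucleotide excision. In batch 2, with 1 array of each group, it was 0.56 for base excision, 0.35 for translesion synthesis, 0.33 for end joining, 0.14 for mismatch repair and −0.31 for nucleotide excision. Markers of other cell types did not pass in limma: 0 of 5 measured leukocyte, 0 of 6 epithelial and 0 of 5 endothelial markers, and 0 of 8 fibroblast markers. At an unadjusted p under 0.05 with the labelled batch there were 1 leukocyte marker lower, 1 endothelial marker higher and none of the others (background 4.33% higher and 3.74% lower). With the spike-in batch 1 fibroblast marker was lower as well, Col1a1 (−0.86, limma adjusted p = 0.201, background 6.37% lower).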

How the data were processed

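The authors deposited log2 expression values of 45101 probe sets, 1 column per array, and per the submitters' processing notes MAS5 was used. The values show that each probe set was centred on its median over the 8 arrays (largest absolute median 5e-07). Neither the log base, taken as 2, nor the centring step is given in the sources used here. No build is named, so only sequences carry coordinates, from RefSeq.

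The 64 control probe sets were left out, leaving 45037, of which 34945 had 1 gene symbol, for 18193 genes. For each gene 1 probe set was read, picked by its name alone (suffix _at, _a_at, _s_at, _x_at, then the lowest number). No filter on level was possible. limma 3.58.1 in R 4.3.3 (lmFit, eBayes with a trend, 5 residual degrees of freedom) tested G1 minus G0, two-sided, with the labelled batch as covariate and Benjamini-Hochberg adjustment over 45037 probe sets, and was tested on simulated data. The number of arrays limits the precision. The labels do not say whether replicates are separate cultures, so the p-values cover only the spread between these arrays, possibly technical.

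All 38 members are accounted for. Values on every array are given for members past the threshold, with groups that do not overlap or with the largest difference of their pathway, and for some others chosen after their values were seen. Other pathway genes are named when past the threshold with the labelled batch or when they have the largest difference among those with groups that do not overlap. Pold4, Fen1, Apex2 and Parp3 are named beyond this rule. Rfc3, Rfc4, Rpa1, Rpa2 and Pold3 passed only with the spike-in batch and are counted but not described. The members, lists and tests were chosen with earlier results of these data known. The spike-in batch, 6-array, leave-one-out and other alternative fits are in the closing section.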

Additional observations from a re-analysis of the deposited data

Results flagged for a closer look

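Among 74 groups of 4 arrays (37 genes, G1 and G0), 4 had an array far from the other 3 by Dixon's criterion. Chance gives about 1 in 20, so the count is near what chance gives, and the genes are listed by this rule alone. Parp1 read 1.24 on G1 replicate 4, against −0.05 to 0.11 on the other G1 arrays. Polq read 1.05 on G1 replicate 4, against −0.07 to 0.05 on the other G1 arrays. Msh3 read −1.13 on G0 replicate 3, against −0.10 to 0.09 on the other G0 arrays. Polb read −0.88 on G0 replicate 2, against 0.00 to 0.15 on the other G0 arrays. The arrays of the first 3 genes are those without spike-ins, and the part of the labelling in these values was not tested.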

How the results depend on the processing

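Of 28 alternatives, 20 set out with the tests and 8 added after seeing the data, Neil3 kept its direction in 28, with a difference of 2.65 to 3.23 and a limma adjusted p of 0.010 to 0.210. It passed in 8. The count of repair genes higher in G1 fell to 0, against 1, without the 2 arrays that lack spike-ins, with the replicate block, in labelling batch 1 alone, without the trend in eBayes and when a gene's probe sets were averaged (limma adjusted p of Neil3 0.091, 0.102, 0.108, 0.052 and 0.104). Leaving out 1 array gave 0 to 0 genes with the labelled batch and 0 to 1 with the spike-in batch. No repair gene was lower in any of the 28 limma fits. The base excision median, 0.27, was 0.088 in labelling batch 1 alone, and 0.088 to 0.36 with 1 array left out. The medians of mismatch repair (0.48 to 0.73), translesion synthesis (0.25 to 0.49) and nucleotide excision (−0.26 to −0.10) kept their sign in all 20, and that of end joining (−0.06 to 0.10) did not. Between 6 and 10 genes had all G1 arrays above all G0 arrays, and 1 to 3 below. With fewer arrays more genes have groups that do not overlap: the 10 above and 3 below on the 6 arrays with spike-ins stand against 7.58% and 9.14% of all genes, the 10 above and 1 below in labelling batch 1 against 6.83% and 9.97%, the 8 above and 3 below without G1 replicate 3 against 5.02% and 4.72%, and the 8 above and 2 below without G0 replicate 3 against 5.86% and 5.54%. Ercc4 minus Ercc1 was 0.43, and −0.49 with the quietest probe sets. Same-numbered arrays showed little sign of pairing: their deviations from the group means correlated at 0.07, 0.11, −0.14 and −0.14, and the block moved the count of calls as given above. The spike-ins set G1 replicate 4 apart together with G0 replicate 3. Matchings other than by number were not checked, so the correlations do not show that the arrays are unpaired. Without absolute levels, signal over background is unknown.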

Other observations

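Some repair genes lie within 1 kb of another measured gene in RefSeq's mouse gene table, with either a different or a similar value. Prkdc, at −0.13, lies beside Mcm4, a subunit of the replicative helicase, which differed by 0.74 with all G1 arrays above all G0 arrays (SE 0.19, limma adjusted p = 0.349; 0.084 with the spike-in batch). Xpc, at −0.28, lies beside Lsm3, an RNA-binding splicing protein gene, which differed by 1.26 (SE 0.21, limma adjusted p = 0.078, or 0.022 in the spike-in batch fit). Pms1, at 0.56, lies beside Ormdl1, a regulator of sphingolipid synthesis, which differed by 0.58 (adjusted p = 0.635). These pairs were picked after their values were seen and their differences were not tested.

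Of 10 measured base excision genes beyond the listed members, 0 passed in limma (1 rose with the spike-in batch, background 0.929%), 5 differences were above 0 and 5 below, and the median was −0.01. At an unadjusted p under 0.05 there were 3 higher and 1 lower (background 4.33% and 3.74%). These 4 were also the ones whose groups did not overlap (background 3.79% above and 3.28% below). Fen1, the flap endonuclease shared with replication, differed by 1.37 with all G1 arrays above all G0 arrays (SE 0.24, limma adjusted p = 0.103, or 0.017 in the spike-in batch fit). Aplf, an end-processing factor, differed by 1.78 (SE 0.53, adjusted p = 0.448), and Apex2, a second abasic endonuclease, by 0.82 (SE 0.30, adjusted p = 0.607). Parp3, another poly(ADP-ribose) polymerase, had all G1 arrays below all G0 arrays (−0.77, SE 0.25, adjusted p = 0.507).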
